A study of Mus musculus with 4 samples.

Results

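The TGF-beta and BMP superfamily was examined in the kidneys of diabetic and nondiabetic mice that had lost 1 kidney or had a sham operation. Members were taken by name: every probe set whose single platform gene symbol starts with Tgfb, Bmp, Smad, Gdf, Inhb, Acvr or Ltbp. This gave 113 probe sets for 52 genes, out of 45101 probe sets on the array, of which 34945 carry 1 symbol and stand for 18193 genes. A further 2 probe sets pair such a symbol with another gene's and were left out. The name also catches 5 genes outside the pathway's ligands, receptors, binding proteins and Smads: Bmp1, Bmp2k, Tgfbi, Tgfb1i1 and Tgfbrap1.

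Diabetic and nondiabetic mice each had either uninephrectomy (removal of 1 kidney) or a sham operation, and each of these 4 groups was measured on 1 array. Values are given in the order nondiabetic sham, then nondiabetic uninephrectomy, then diabetic sham, then diabetic uninephrectomy. The diabetic mice were OVE26 transgenics, whose transgene acts in the insulin-producing beta cells of the pancreas, and the nondiabetic mice were their littermates. All were females on the FVB/NJ background, operated on at 2 months of age and studied at 4.5 months, 10 weeks later. RNA from the kidneys of 4 mice was pooled for each array, which leaves the animals' own spread unmeasured. A difference between 2 arrays therefore has no replicate check. Where both diabetic values are said to lie above or below both nondiabetic ones, this only describes the 4 arrays. The share of all genes with such an order was not counted.

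Ligands of this superfamily bind pairs of type I and type II receptor kinases, which phosphorylate receptor Smads that enter the nucleus with the common Smad4. TGF-beta and activin ligands act mainly through Smad2 and Smad3, and BMPs through Smad1, Smad5 and Smad9, while Smad6 and Smad7 inhibit the pathway. In the kidney TGF-beta is best known for driving matrix deposition and fibrosis, and BMP7 is known as a product of the tubular epithelium with opposing actions.

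Where a gene had several probe sets the brightest on average stood for it, and it passed the expression filter if the mean of its log2(signal + 26.4) values reached 7.06, the median over all probe sets. Of the 52 genes 34 passed, as did 11197 genes in all, and 59 of the 113 member probe sets passed when taken singly. All differences below are on this log2 scale, which shrinks the differences of dim genes. Each factor was tested with limma on all 11197 genes in an additive model, and a gene rose or fell only where its Benjamini-Hochberg adjusted p was below 0.05. The model leaves 1 residual degree of freedom, so a gene's standard error (SE) comes nearly wholly from other genes of similar signal.

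Markers of the labelled tissue were present, since all 5 proximal tubule, 4 loop and distal tubule, 4 collecting duct and 4 podocyte markers found on the platform passed the filter. The arrays differed at their dim end: the 20th percentile of the signal was 23.7, 30.1, 29.8 and 23.3. Relative to the nondiabetic sham array, 18S ribosomal RNA (3 probe sets) stood at 1.02-fold, 1.32-fold and 1.88-fold on the other 3 arrays. The part of either in the differences below was not tested. In bulk kidney, fewer cells of a type and less RNA per cell cannot be told apart.

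No superfamily gene rose or fell with diabetes. With limma 0 of the 34 genes passed as higher and 0 as lower, against 1.48% and 0.75% of all genes tested. At an unadjusted limma p below 0.05, 4 were higher (5.43% of all genes) and 0 lower (4.1% of all genes). The 4 were the activin subunit gene Inhbb, the latency protein gene Ltbp3 and 2 of the genes that only share the name, Bmp1 and Tgfbi. The 34 genes had a median difference of -0.01 after sham operation and -0.08 after uninephrectomy, beside 0.01 and -0.01 for all genes tested. Both arms were higher in 8 of the 34 genes and lower in 13 (23.5% and 38.2%), against 26.3% and 26.1% of all genes.

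**Figure D1:**
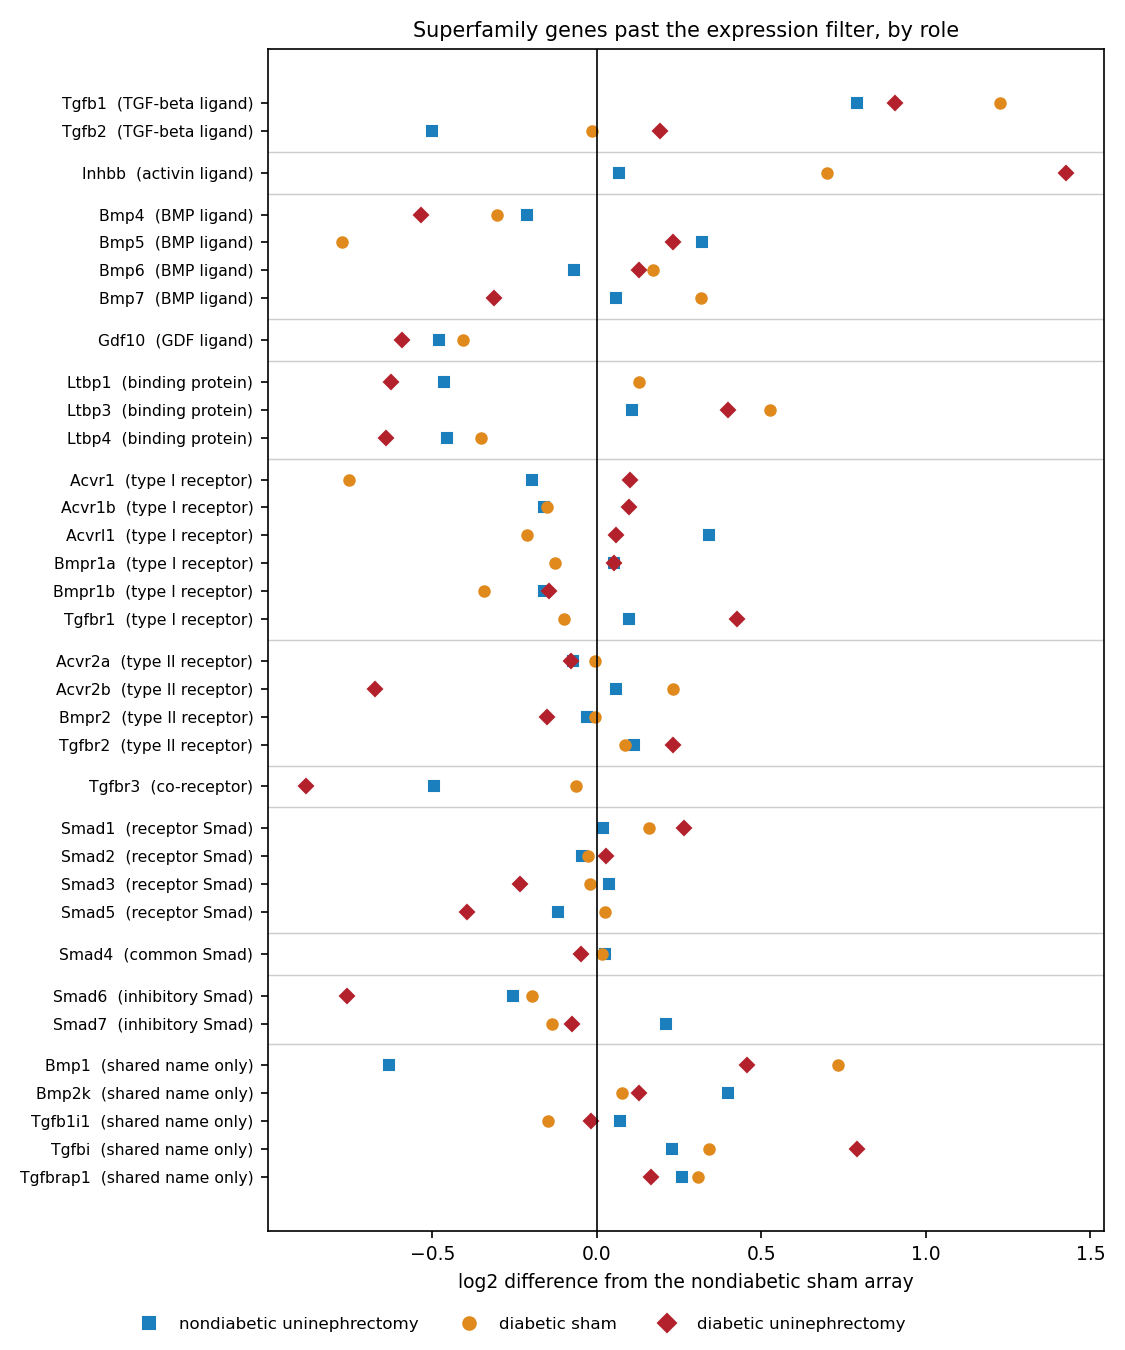
Log2 difference of each of the 34 superfamily genes past the expression filter from the nondiabetic sham array, by role, for nondiabetic uninephrectomy (squares), diabetic sham (circles) and diabetic uninephrectomy (diamonds). Each point is 1 array of pooled RNA; Inhbb on the diabetic uninephrectomy array and Tgfb1 on the diabetic sham array lie far above 0, and Tgfbr3 lies below 0 on both uninephrectomy arrays.

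Upstream sequences are printed for 3 genes, Inhbb, Grem1 and Id4. Inhbb is the ligand with the largest mean diabetes difference, though it did not pass limma. Grem1 is a BMP antagonist gene that rose with diabetes, and Id4 is a BMP target that fell. No upstream sequence was available for Tgfbr3, Bmp1 or Id1, and those of Bmpr2 and Tgfb1 were read but are not printed. Each printed sequence is the 250 bases before the transcription start in RefSeq on GRCm38.p6, written 5′ to 3′ on the gene's strand. Inhbb lies at chr1:119422249-119422498 on the minus strand, Grem1 at chr2:113758649-113758898 on the minus strand and Id4 at chr13:48260866-48261115 on the plus strand. Capitals mark the Smad motif CAGAC, searched on both strands, and the GC-rich motif GGCGCC, which reads the same on both; the motifs can share bases, though none do in these 3 windows.
Inhbb: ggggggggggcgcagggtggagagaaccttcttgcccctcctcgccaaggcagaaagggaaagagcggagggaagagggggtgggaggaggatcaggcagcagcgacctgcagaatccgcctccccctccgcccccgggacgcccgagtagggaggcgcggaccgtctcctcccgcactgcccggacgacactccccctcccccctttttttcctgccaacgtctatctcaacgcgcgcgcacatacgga
Grem1: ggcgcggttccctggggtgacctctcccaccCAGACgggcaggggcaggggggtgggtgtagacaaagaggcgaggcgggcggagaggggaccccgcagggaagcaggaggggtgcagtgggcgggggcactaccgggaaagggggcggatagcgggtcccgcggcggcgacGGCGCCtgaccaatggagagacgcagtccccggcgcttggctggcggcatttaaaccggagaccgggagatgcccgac
Id4: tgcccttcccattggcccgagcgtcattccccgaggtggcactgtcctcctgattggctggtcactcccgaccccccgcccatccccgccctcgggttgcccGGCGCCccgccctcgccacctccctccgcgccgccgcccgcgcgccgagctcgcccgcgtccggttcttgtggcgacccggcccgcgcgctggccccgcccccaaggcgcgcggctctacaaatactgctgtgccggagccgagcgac

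The Inhbb window held 0 of either motif, the Grem1 window 1 of each and the Id4 window 1 GGCGCC. Over 32851 windows of this length, 42.2% held CAGAC and 9.59% held GGCGCC. Windows of superfamily genes were found for 39 of the 52 genes, 49 windows in all, of which 21 held CAGAC (42.9%) and 10 held GGCGCC (20.4%). These are letter matches and show no binding.

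Among the TGF-beta ligands, Tgfb1, the form best known in renal fibrosis, was measured by 2 dim probe sets. The brighter had signals of 66.9 and 135 in nondiabetic sham and uninephrectomised mice, and 191.6 and 148.5 in their diabetic counterparts. The other, below the filter, had 70.9, 26.8, 123.2 and 154.8 in the same order. On both probe sets the 2 diabetic arrays lay above the 2 nondiabetic ones, but the probe sets put the larger difference in different arms: log2 1.22 in sham and 0.12 in uninephrectomised mice on the brighter, 0.62 and 1.77 on the other. The brighter one's mean difference of 0.67 ± 0.36 (limma SE) did not pass (adjusted p = 0.59).

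Tgfb2 had 3 probe sets past the filter. Their signals were 186.1, 123.7, 184 and 216.5 on the brightest, 161.4, 130.9, 156.3 and 245 on the second, and 118.4, 109.9, 123.9 and 241.6 on the third, in the same order of groups. On all 3 the diabetic uninephrectomy array was highest and the nondiabetic uninephrectomy array lowest, while the sham arrays differed by at most 0.05 on the log2 scale. The diabetes difference after uninephrectomy was therefore 0.69, 0.79 and 0.98. The remaining Tgfb2 probe set, below the filter, had 68.9, 8.7, 89.2 and 56.5 and was highest in diabetic sham mice, with the diabetic uninephrectomy array below both sham arrays. The 3 probe sets measure the same RNA pools and are not replicates, and the gene's mean of 0.34 ± 0.32 did not pass limma (adjusted p = 0.91). Tgfb3, below the filter, had signals of 43.8, 52.9, 83.2 and 3.8.

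Of the 4 activin subunit genes, Inhbb, which encodes the beta B chain of activin B, was the one past the filter. Its signals were 89.1, 94.6, 161.2 and 283.9. Both diabetic values lay above both nondiabetic ones. Diabetes went with a log2 difference of 0.70 after sham operation and 1.36 after uninephrectomy, a mean of 1.03 ± 0.34 with an unadjusted p of 0.0036 in limma that did not pass adjustment (0.12). A second Inhbb probe set, below the filter, gave 19.3, 47.2, 151.2 and 139 and thus the same separation. The beta A subunit gene Inhba stayed below the filter, at 161.1, 59.8, 71.2 and 110.2 on its brighter probe set, with no common order of diabetic and nondiabetic arrays.

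**Figure D2:**
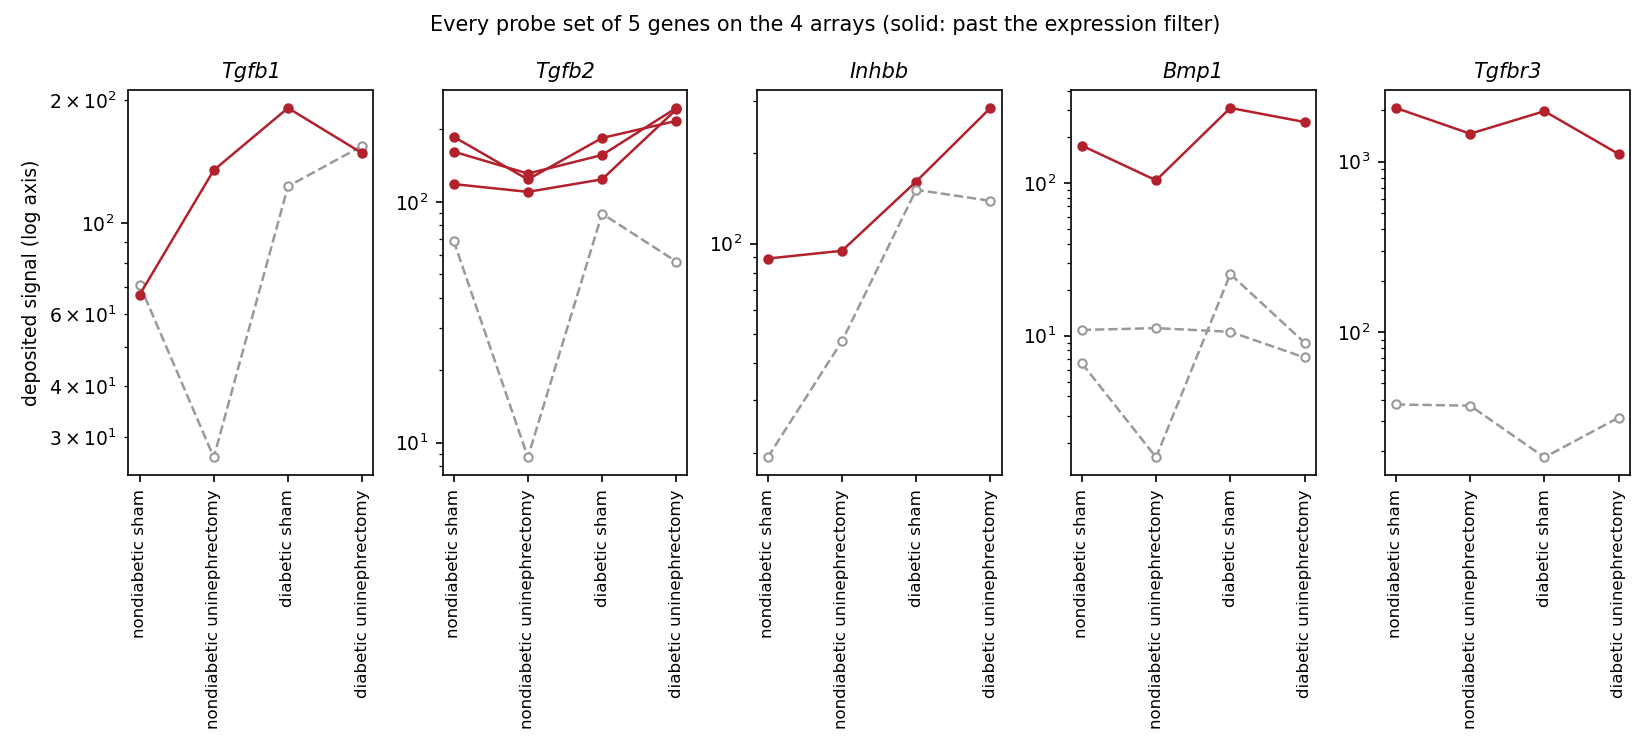
Deposited signal (log axis, own scale in each panel) of every probe set of Tgfb1, Tgfb2, Inhbb, Bmp1 and Tgfbr3 on the 4 arrays; lines join the values of 1 probe set, solid where it passed the expression filter and dashed where it did not. Both Inhbb and both Tgfb1 probe sets are higher on the diabetic arrays, and the solid Tgfbr3 line is lower on both uninephrectomy arrays.

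The BMP ligands past the filter were Bmp4, Bmp5, Bmp6 and Bmp7. Bmp4, a ligand that guides kidney development, had signals of 1828, 1575, 1475 and 1254. It was lower in both diabetic arms, with differences of -0.30 and -0.32, and lower after uninephrectomy in both, with -0.21 and -0.23; its diabetes difference had an adjusted limma p of 0.54. Bmp6, a regulator of iron balance, had signals of 589.1, 560.1, 666.8 and 647.1, a diabetes difference of 0.17 in sham and 0.20 in uninephrectomised mice (adjusted p = 0.95). In both genes the 2 arms of diabetes differed by at most 0.03.

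Bmp7, the BMP of the tubular epithelium, had signals of 857.1, 894.1, 1074 and 685.5 on its brightest probe set. It was higher in diabetic than nondiabetic sham mice (0.32) and lower in diabetic than nondiabetic uninephrectomised mice (-0.37). Its second probe set past the filter, at 455.6, 387.5, 509.7 and 518.5, was higher in both arms (0.15 and 0.40), so the 2 probe sets disagree on the uninephrectomised arm. Bmp5 lay at the edge of the filter, with signals of 113.1, 147.6, 55.2 and 137.3 on its brightest probe set. Bmp2 lay just below it, at 71.7, 95.4, 117.6 and 139.3, with both diabetic values above both nondiabetic ones.

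Of 6 GDF genes only Gdf10, also called BMP3b, passed the filter. Its signals were 468 in nondiabetic sham and 328.2, 346.7 and 301.4 in the other groups in the same order, so the nondiabetic sham array was the highest. Gdf15 was not analysed here.

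Among binding proteins, Ltbp3, which holds latent TGF-beta in the matrix, had signals of 1143 (sham) and 1234 (uninephrectomy) in nondiabetic mice and 1658 and 1517 in diabetic mice. Both diabetic values exceeded both nondiabetic ones, with a mean difference of 0.41 ± 0.16 (limma unadjusted p = 0.015, adjusted p = 0.27). The second Ltbp3 probe set past the filter, at 366.8, 235.4, 482.7 and 394.2, had the same separation, with a mean of 0.53. Ltbp1, of the same family, had signals of 284.7, 199.2, 313.6 and 175.3 and was thus lower on both uninephrectomy arrays. Its mean uninephrectomy difference was -0.61 (limma unadjusted p = 0.034, adjusted p = 0.76). Ltbp4 had signals of 240.9, 168.6, 182.9 and 145.1, highest in nondiabetic sham mice.

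No type I or type II receptor gene passed limma for either factor. The median diabetes difference of 10 receptor genes was -0.11 after sham operation and 0.01 after uninephrectomy. Tgfbr2, the type II receptor that binds TGF-beta itself, had signals of 2175, 2354, 2308 and 2558, and its differences with either factor lay between 0.08 and 0.15. Bmpr2, the type II receptor of BMPs, had signals of 4664, 4569, 4652 and 4200, a range within which the diabetic uninephrectomy array was lowest. Acvr2a, an activin type II receptor, had signals of 1608, 1528, 1602 and 1523 on its brightest probe set, which differed by less than 0.01 with diabetes in either arm. Its second probe set past the filter, at 255.3, 207.6, 218.9 and 222.5, had diabetes differences of -0.20 and 0.09.

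Among type I receptors, Tgfbr1, the partner of Tgfbr2, had signals of 2515, 2691, 2346 and 3387. Its highest value was thus on the diabetic uninephrectomy array. The mean uninephrectomy difference was 0.31 (limma unadjusted p = 0.048, adjusted p = 0.86), made of 0.10 in nondiabetic and 0.52 in diabetic mice. Bmpr1a, a BMP receptor, had signals of 1909, 1983, 1745 and 1979 on its brightest probe set. Acvr1, also known as ALK2, had 708.2, 614.9, 409.3 and 761.2, lowest in diabetic sham mice, and its diabetes differences of -0.75 and 0.30 lay on opposite sides of 0. A dimmer Acvr1 probe set past the filter had 110.1, 171.2, 119.1 and 60.5, lowest in diabetic uninephrectomised mice, with differences of 0.09 and -1.19. The 2 probe sets thus disagree in both arms. Acvr2b, an activin type II receptor, had 217, 227.2, 259.3 and 126.2, with differences of 0.23 and -0.73. Another Acvr2b probe set, below the filter, had 85.4, 58.9, 119.7 and 122.2. Its differences were 0.39 and 0.80, so the sign in uninephrectomised mice was the opposite.

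No Smad gene passed limma for either factor. Smad4, the partner shared by both branches, had signals of 3409, 3471, 3450 and 3296, and its 4 differences between 2 arrays lay between -0.07 and 0.03 on this, its brightest probe set. Another past the filter was not flat: it had 1247, 1654, 1853 and 1269, with diabetes differences of 0.56 after sham operation and -0.38 after uninephrectomy. Smad2 had signals of 492, 476.4, 482.7 and 502.5 on its brightest probe set. The second Smad2 probe set past the filter had 252.1, 383.2, 310.7 and 262.5, with diabetes differences of 0.28 and -0.50. Smad3 had 1659, 1703, 1637 and 1408. Smad1, of the BMP branch, had 895.1, 907.1, 1003 and 1081, with both diabetic values above both nondiabetic ones by a mean of 0.20 ± 0.17 (limma adjusted p = 0.89) on its brightest probe set. Its dimmest probe set past the filter, at 214.6, 148.9, 169 and 207.2, lacked this separation, with differences of -0.30 and 0.41. Smad5, of the same branch, had 1336, 1230, 1360 and 1011, and 3 probe sets of it were lower after uninephrectomy, with means between -0.32 and -0.25.

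Both inhibitory Smads were lower in diabetic mice in both arms, without passing the test. Smad6, which inhibits BMP receptors and is itself induced by BMPs, had signals of 620, 516, 538.2 and 355.7. Its mean difference was -0.35 with diabetes (limma adjusted p = 0.72) and -0.41 with uninephrectomy (limma adjusted p = 0.95). Smad7, which inhibits both branches and is induced by TGF-beta, had 592.2, 688.9, 536.9 and 560.4, a mean diabetes difference of -0.21 on its brightest probe set and -0.44 on its second.

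Of the genes that share only the name, Bmp1 encodes a metalloprotease that cleaves procollagen and frees BMPs from the antagonist chordin. Its signals were 175.1, 103.8, 308.8 and 250, with both diabetic values above both nondiabetic ones. Its arms of 0.73 after sham operation and 1.09 after uninephrectomy gave a mean of 0.91 ± 0.30, with a limma p of 0.0037 that became 0.12 on adjustment. Its other 2 probe sets had signals of at most 25.3. Tgfbi, a matrix protein induced by TGF-beta, had 555.7, 655.2, 710.9 and 980.1 on its brightest probe set, a mean diabetes difference of 0.45 ± 0.19 (limma adjusted p = 0.34). Its 4 probe sets ranged from -0.07 to 0.45. Tgfbrap1, which binds TGF-beta receptors, had 1409, 1693, 1749 and 1583, and Bmp2k, a kinase gene induced by BMP2, had 1065, 1413, 1126 and 1167; neither kept 1 direction in both arms of diabetes.

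**Figure D3:**
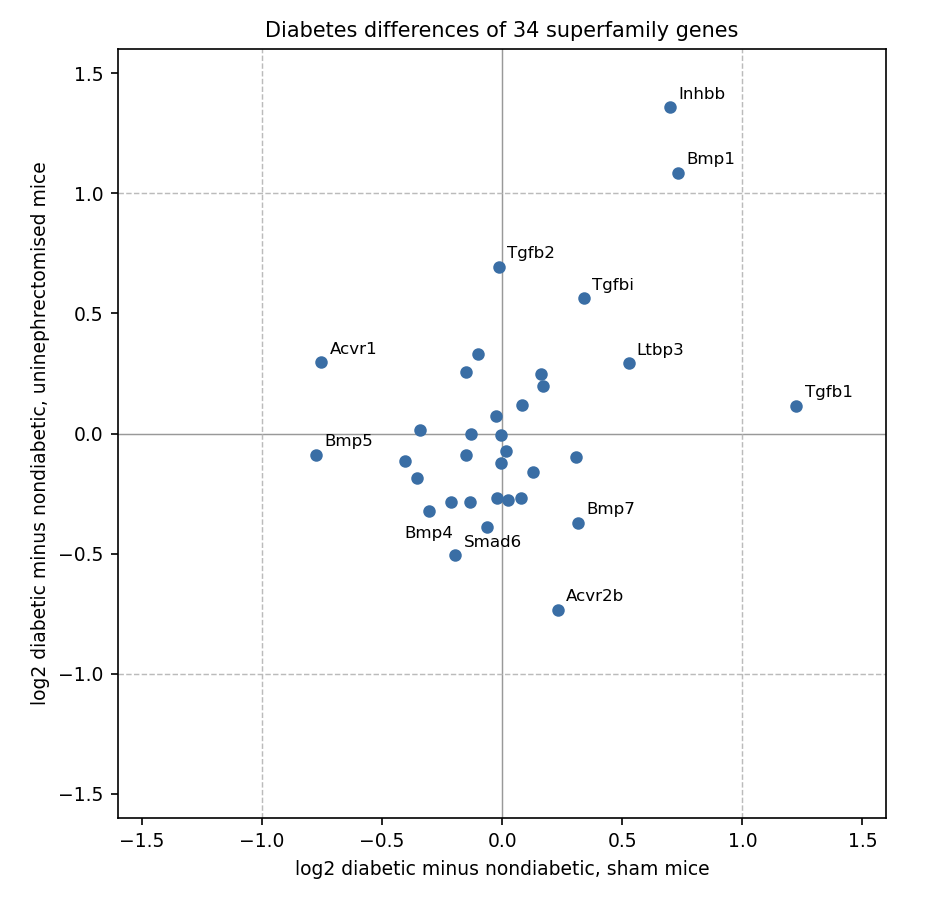
Log2 difference between diabetic and nondiabetic mice in the sham (horizontal) and the uninephrectomised (vertical) arm for the 34 superfamily genes past the filter, 1 point a gene; dashed lines mark 2-fold. Inhbb and Bmp1 are higher in both arms and past 2-fold after uninephrectomy, Tgfb1 is past 2-fold in sham mice, and 0 genes passed limma.

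At least 2-fold differences between 2 arrays were few. With diabetes in sham mice 1 gene was higher, Tgfb1 (0.786% of all genes), and 0 were lower (0.447% of all genes). With diabetes after uninephrectomy 2 were higher, Bmp1 and Inhbb (2.14%), and 0 lower (1.03%). With uninephrectomy in nondiabetic mice 0 were higher (0.661%) and 0 lower (0.518%), and in diabetic mice 1 was higher, Bmp5 (1.48%), and 0 lower (0.661%). The other Bmp5 probe sets, below the filter, went the other way with uninephrectomy in diabetic mice, with log2 differences of -1.50 and -0.75. The diabetes differences of the 2 arms were at least 2-fold apart for 2 genes, Tgfb1 (uninephrectomised minus sham, -1.11) and Acvr1 (1.05), against 5.06% of all genes. On the other Acvr1 probe set past the filter, and on the other Tgfb1 probe set, the sign of this contrast was the opposite. No residual is left to test these differences.

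With uninephrectomy, 11 of the 34 genes were lower in both nondiabetic and diabetic mice and 11 were higher in both (32.4% each). Over all genes tested these shares were 24.8% and 22.8%. In limma 1 superfamily gene passed for uninephrectomy: Tgfbr3 fell. It encodes betaglycan, the co-receptor that presents TGF-beta2 to the signalling receptors and binds inhibin. Its signals were 2063 (sham) and 1456 (uninephrectomy) in nondiabetic mice and 1975 and 1106 in diabetic mice. The 2 sham arrays were close to each other and both lay above both uninephrectomy arrays. Nondiabetic mice gave a log2 difference of -0.49 and diabetic mice one of -0.82; their mean is -0.66, with an SE of 0.16 and a limma adjusted p of 0.027. With limma 1 of 34 genes thus passed as lower (0.179% of all genes tested) and 0 as higher (0.339%). At an unadjusted p below 0.05 Tgfbr3 and Ltbp1 were lower (2.48% of all genes) and Tgfbr1 was higher (3.19%).

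The second Tgfbr3 probe set, at 37.4, 36.8, 18.3 and 31.3, lay far below the filter and carried no such difference. The call was lost under 5 of 10 other settings, with adjusted p between 0.00725 and 0.999 over all settings: it was 0.74 without the trend in limma's prior variance, 0.68 without the expression filter, 0.49 with median centring, 0.33 with probe sets taken singly, and 0.999 when the dim probe set was averaged in, which brought the mean difference to -0.24. The summed signal of 5 proximal tubule markers was 60069, 61913, 61933 and 45864 in the 4 groups in order, that of 4 podocyte markers 3388, 3262, 3584 and 2418, and that of 5 endothelial markers 4839, 4565, 4884 and 4271, with 0 markers at a signal of 0. All 3 sums were lowest on the diabetic uninephrectomy array, as was Tgfbr3. The sum of 3 adipocyte markers was 6770, 3985, 11409 and 10200, lower on the uninephrectomy array at either diabetes status, and 1 of its 2 markers past the filter fell with uninephrectomy. The part of these cells in the difference of Tgfbr3 was not tested.

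**Figure D4:**
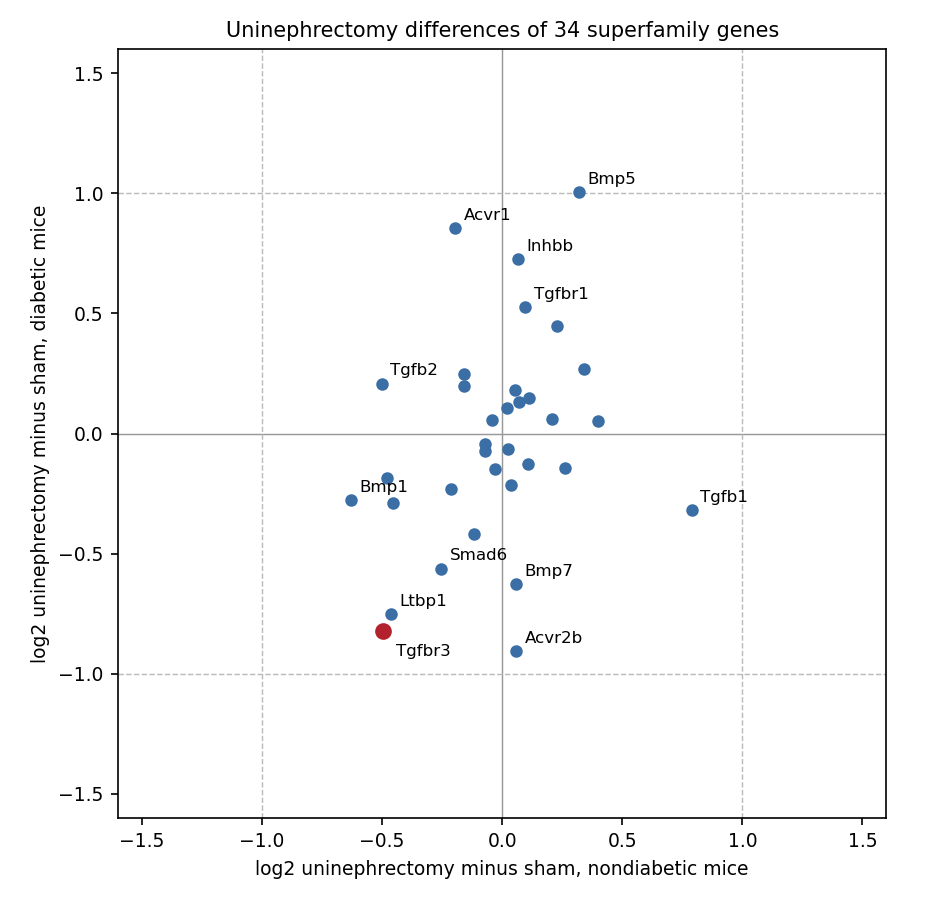
Log2 difference between uninephrectomised and sham mice in nondiabetic (horizontal) and diabetic (vertical) mice for the 34 superfamily genes past the filter, 1 point a gene; dashed lines mark 2-fold. Tgfbr3 (red), the 1 gene that passed limma, is lower in both, Ltbp1 lies beside it, and Tgfb1, Tgfb2, Acvr1 and several others differ in sign between the arms.

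Pathway genes outside the superfamily were read from 7 lists, in which 13 genes passed limma for diabetes, 11 higher and 2 lower. Of 11 expressed TGF-beta target genes 7 rose and 0 fell, with a median difference of 0.53 after sham operation and 1.32 after uninephrectomy. Over all genes tested 1.48% rose and 0.75% fell, and the medians were 0.01 and -0.01. The counts of the other lists stand against the same values. The lists were chosen with earlier results of these data known, so an excess over these shares is not a test. Ccn2, which encodes the matricellular protein CTGF, had signals of 3646, 4048, 5635 and 7878. It rose by 0.79 ± 0.16 (limma adjusted p = 0.00072). Fn1, encoding fibronectin, had 948, 1112, 1347 and 2569 and rose by 0.84 ± 0.17 (limma adjusted p = 0.0008). In both genes the diabetic arrays lay above the nondiabetic ones, highest after uninephrectomy. Ccn2 and Fn1 were singled out after their values were seen. The 4 largest rises of the list were those of Cdkn1a (1.95), Col3a1 (1.66), Col1a2 (1.17) and Tagln (1.03). Col1a1 and Postn were higher in both arms but did not pass, with means of 1.15 and 0.84 (limma adjusted p = 0.09 and 0.11). Snai2 and Junb did not follow, with means of -0.12 and -0.02. Their arms were -0.29 after sham operation and 0.06 after uninephrectomy for Snai2, and -0.21 and 0.16 for Junb.

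Acta2 made up the 7, and Acta2 and Tagln are also smooth muscle markers. The summed signal of 4 smooth muscle and pericyte markers, of which 3 rose, was 5125, 5229, 7197 and 11300 in the 4 groups in order. This sum and the count of 3 include Acta2 and Tagln, so neither is independent of the target genes. The sum of 5 fibroblast and mesenchymal markers, of which 0 passed, was 5093, 4615, 6059 and 6695, and it includes the target gene Col1a1. The sum of 5 macrophage markers was 7322, 6165, 6797 and 6938. Of these, 3 were past the filter and 0 passed limma for diabetes, while Cd68 and Itgam lay below the filter and were not tested. Both adipocyte markers past the filter rose with diabetes. The part of these cells in the target genes' rise was not tested.

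BMP target genes went the other way. Of 4 expressed members, all Id genes, 2 fell and 0 rose with diabetes, and all 4 were lower in both arms. Id1, an inhibitor of differentiation that BMP Smads induce directly, had signals of 4597 (sham) and 4704 (uninephrectomy) in nondiabetic mice and 3459 and 2019 in diabetic mice. Both diabetic values lay below both nondiabetic ones, and Id1 fell by 0.81 (log2; limma SE 0.16 and adjusted p = 0.00072). Id4 had 4765, 3537, 3339 and 2329 and fell by 0.55 (log2; limma SE 0.15 and adjusted p = 0.028). All 3 Id4 probe sets past the filter were lower in both arms, with differences between -0.81 and -0.51. Id3, at 3469, 3166, 3096 and 1818, had a mean of -0.48 (adjusted p = 0.11), and Id2, at 14191, 17897, 13951 and 14612, one of -0.16. The list's median was -0.29 after sham operation and -0.69 after uninephrectomy. The summed signal of 4 loop and distal tubule markers was 78742, 82092, 76781 and 62285, and 1 of them fell with diabetes. So did 1 of 4 podocyte and 1 of 4 collecting duct markers, while another collecting duct marker rose. The collecting duct sum was 7897, 7315, 7932 and 7334 in the same order of groups. The loop, podocyte and proximal tubule sums were lowest on the diabetic uninephrectomy array, as were Id1, Id3 and Id4, and the part of these cells in the fall was not tested.

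Of 17 expressed secreted antagonists and co-receptors 3 rose with diabetes and 0 fell. Grem1, encoding the BMP antagonist gremlin, had signals of 157.3 (sham) and 226.1 (uninephrectomy) in nondiabetic mice and 288.3 and 644.9 in diabetic mice. Both diabetic values exceeded both nondiabetic ones, and Grem1 rose by 1.09 ± 0.26 (limma adjusted p = 0.0092). Bgn, encoding biglycan, a matrix proteoglycan that binds TGF-beta, had 2599, 2357, 3448 and 4306 and rose by 0.63 ± 0.15 (limma adjusted p = 0.0097), with the same separation on all 3 of its probe sets past the filter.

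Fst, encoding the activin antagonist follistatin, had 806.8, 412.3, 820.3 and 1558. Its mean rise was 0.94 ± 0.22 (limma adjusted p = 0.0059), made of 0.02 after sham operation and 1.85 after uninephrectomy. The adjusted p was 0.946 with robust estimation of the prior, and lay between 0.000113 and 0.946 over all settings. The related Fstl1, at 831.1, 631.6, 851.2 and 1472, had arms of 0.03 and 1.19 and did not pass (adjusted p = 0.091).

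Of 10 expressed genes of TGF-beta latency and activation 1 rose. Thbs1, encoding thrombospondin 1, which activates latent TGF-beta, had signals of 497.7, 406.1, 625 and 917.8 and rose by 0.72 ± 0.21 (limma adjusted p = 0.049). The adjusted p became 0.056 with an offset of 1 and lay between 0.020 and 0.61 over all settings. Its arms were 0.31 after sham operation and 1.13 after uninephrectomy. The second Thbs1 probe set past the filter, at 252.9, 207.3, 254.8 and 326, had arms of 0.01 and 0.59. Mmp14, a membrane protease gene, had 161.9, 73.5, 184.4 and 326.3 and did not pass (adjusted p = 0.13), nor did Emilin1 (mean difference 0.74) or Mmp2 (mean difference 0.40). Of 16 Smad partners and negative regulators 0 passed limma for diabetes in either direction. The lowest unadjusted limma p for diabetes was that of Zfyve9, encoding the Smad anchor SARA, with a mean of -0.51 (unadjusted p = 0.021, adjusted p = 0.34). Ski, Rnf111 and Tgif2 had means of -0.27, -0.24 and 0.20. Of 7 genes of the TAK1 and p38 branch 0 passed, with means of 0.13 or nearer to 0 for Tab2, Map3k7, Tab3 and Tab1. The 5 other superfamily ligands on the platform stayed below the filter.

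All 13 diabetes calls were lost without the trend in limma's prior variance, where 0 of 11197 genes passed (906 at an unadjusted p below 0.05). Without the expression filter, or with probe sets averaged by gene, the call of Cdkn1a was the 1 that stayed (adjusted p = 0.033 and 0.019). Col1a2, Col3a1 and Fst did not pass with the robust prior (adjusted p = 0.33, 0.77 and 0.946). With uninephrectomy 1 gene of the lists passed, Col3a1, which rose by 0.87 (limma adjusted p = 0.0048) from arms of 0.13 and 1.61.

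**Figure D5:**
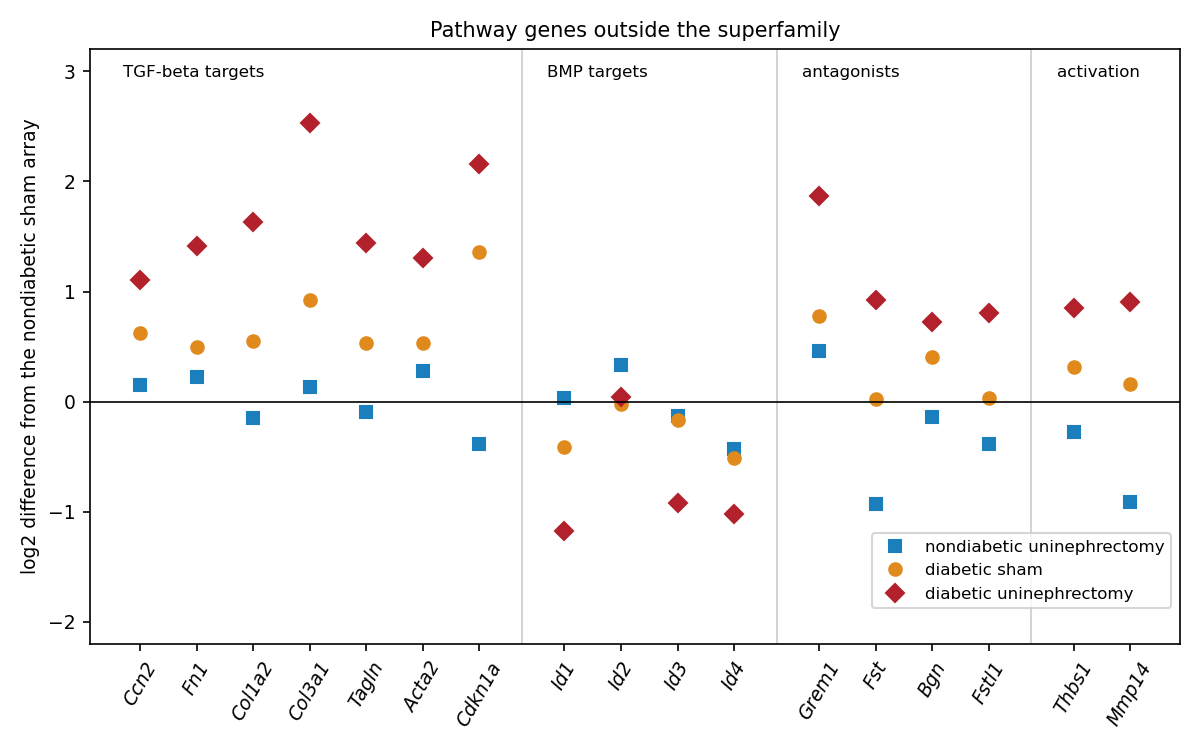
Log2 difference from the nondiabetic sham array for named pathway genes outside the superfamily: nondiabetic uninephrectomy (squares), diabetic sham (circles) and diabetic uninephrectomy (diamonds), each 1 array. The 7 TGF-beta targets shown, those that rose with diabetes, are highest and Id1, Id3 and Id4 lowest in diabetic uninephrectomy mice.

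Superfamily genes with more than 1 probe set past the filter numbered 15. Their probe sets gave different directions for the mean diabetes difference in 5 genes, Bmp7, Bmpr1a, Smad2, Smad4 and Tgfbi, and for uninephrectomy in 7, Acvr1, Bmp2k, Bmpr1a, Bmpr2, Smad1, Tgfb2 and Tgfbi. The 5 probe sets of Bmpr1a ranged from -0.18 to 0.21 with diabetes and from -0.22 to 0.37 with uninephrectomy. The 54 member probe sets below the filter had a median diabetes difference of 0.23 in sham and -0.07 in uninephrectomised mice, beside 0.10 and -0.14 for all 22550 probe sets below it. Probe sets past the filter also ranged across 0 for diabetes in Bmp7 (-0.03 to 0.28), Smad2 (-0.11 to 0.02) and Smad4 (-0.07 to 0.09), and for uninephrectomy in Acvr1 (-0.10 to 0.33), Bmp2k (-0.08 to 0.30), Bmpr2 (-0.09 to 0.02), Smad1 (-0.10 to 0.06), Tgfb2 (-0.15 to 0.37) and Tgfbi (-0.13 to 0.69).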

How the data were processed

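The authors deposited 1 table of linear intensity values per probe set for 4 Affymetrix arrays. The sources used here do not give their software or background correction; the trimmed mean (2% off each end) was 500.003 on every array, so the deposited values had been scaled. Per the labels' protocols, 100 ng of RNA pooled from 4 mice went on each array, labelled with the 3' IVT Express kit. The number of arrays limits the precision.

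Symbols came from the platform annotation and were updated by Entrez number in RefSeq's GRCm38.p6 gene table, which changed 0 of the members. Signals were set on log2(intensity + 26.4), the offset being the 20th percentile, with no further normalisation; the array medians were then 7.06, 7.19, 7.15 and 7.07, which centring makes equal. limma 3.58.1 in R 4.3.3 (lmFit, eBayes with trend) fitted diabetes and surgery additively over 11197 genes (prior degrees of freedom 59.5). The step was tested on simulated data with independent noise of the fitted size and the same diabetes change in both arms. Genes whose arms differ, such as Fst, were not covered by it.

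The members and lists were chosen with earlier results of these data known. Values on all arrays were given for members that passed limma, were 2-fold different between 2 arrays past the filter, were the 2 brightest of a role, or stood on a fixed list of core genes. Up to 4 genes were named from each pathway list, those passing limma first, except that all expressed TGF-beta target genes were named. Acvr1, Acvr2a, Acvr2b, Ltbp2, Ltbp4, Gdf2, Smad1 and Tgfbi lie outside this rule and were chosen after their values were seen. The fit was repeated with quantile normalisation, centred medians, without the filter and with one at the 75th percentile, mean or single probe sets, offsets of 1 and 72.5 (40th percentile), limma without trend or robust, an adjusted p below 0.1, and 1.5-fold.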

Additional observations from a re-analysis of the deposited data

Results flagged for a closer look

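The uninephrectomy differences of 2 pathway genes lay at least 1.5-fold on opposite sides of 0 in nondiabetic and diabetic mice. Fst, the follistatin gene, had log2 differences of -0.93 in nondiabetic and 0.90 in diabetic mice. The second Fst probe set past the filter had -0.16 and 0.86. Mmp14 had -0.91 and 0.74. With 1 array in each group neither difference was tested. No superfamily gene past the filter met this condition for either factor.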

How the results depend on the processing

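No alternative brought a superfamily gene past limma for diabetes. For uninephrectomy the count of 1 (Tgfbr3) became 0 without trend, with mean or single probe sets, with median centring and without the filter. For the lists' 13 diabetes calls the count was 0 without trend, 1 with mean probe sets, 1 without the filter, 5 probe sets with single probe sets and 6 with median centring. Their 1 uninephrectomy call became 0 in these 5 settings and with the robust prior, and 2 at an adjusted p below 0.1, with quantile normalisation and with the stricter filter. Superfamily genes at least 2-fold different numbered 1 for diabetes in sham mice, 2 for diabetes after uninephrectomy, 0 for uninephrectomy in nondiabetic and 1 in diabetic mice. In that order the counts were 5, 4, 2 and 7 at 1.5-fold and 2, 5, 3 and 3 without the filter; 0, 0, 0 and 0 with mean probe sets and with the stricter filter; 2, 2, 1 and 2 with an offset of 1 and 0, 1, 0 and 0 with the 40th percentile; the last was 0 with quantile normalisation. The 2 genes whose arms of diabetes were 2-fold apart became 6 without the filter, 4 with single probe sets, 1 with either normalisation or the stricter filter, and 0 with mean probe sets or the larger offset. Causes were not tested. None of the 13 diabetes calls of the lists, nor the uninephrectomy calls of Tgfbr3 and Col3a1, reversed direction in any setting that tested the gene. Only quantile normalisation, median centring, mean probe sets and the other offsets changed these mean differences. The remaining settings left them as they were and could not reverse a direction. No paired analysis was possible because each group has 1 array. Dim probe sets limit what can be said of most ligands.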

Other observations

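Among genes below the expression filter, Ltbp2, a matrix protein of the fibrillin family, had signals of 1.7 in nondiabetic sham, 49 in nondiabetic uninephrectomy, 71.5 in diabetic sham and 128.6 in diabetic uninephrectomy mice. Both diabetic values were above both nondiabetic ones. Gdf2, which encodes BMP9, a circulating ligand made in the liver, had 51, 150.5, 34.3 and 81.8, so both uninephrectomy arrays were above the sham array of the same diabetes status. Both genes were chosen after their values were seen, and neither was tested.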
